A study of Mus musculus with 24 samples.

Results

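The 10 genes described here carry out MHC class I antigen presentation. They were taken by symbol from the 33000 genes of the count table, as the light chain gene B2m, the heavy chain genes H2-K1, H2-D1, H2-T23 and H2-Q4, the peptide transporter genes Tap1 and Tap2, the tapasin gene Tapbp, and the immunoproteasome genes Psmb8 and Psmb9. Expression was measured in frontal cortex of 3 WT mice and 3 mice homozygous for GFAP-IL6, a transgene in which the GFAP promoter drives IL-6 in astrocytes, and all 6 mice were C57BL/6 and 3 months old. The libraries were made with 3'Pool-seq, which reads the 3' end of polyadenylated RNA, and each mouse gave 4 of the 24 libraries, from tagmentation of 2 ng or of 1 ng of cDNA, once in a set lettered A and once in a set lettered B. The labels do not say what the set letters stand for, and libraries of 1 mouse share its RNA, so the mouse was the replicate throughout. Of the 10 genes, 9 had counts and 9 were tested.

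MHC class I molecules hold a heavy chain and B2m and display peptides of cytosolic proteins at the cell surface, where CD8 T cells and natural killer cells read them. The peptides are cut by the proteasome, whose catalytic subunits can be replaced by the immunoproteasome subunits encoded by Psmb8, Psmb9 and Psmb10, and are carried into the endoplasmic reticulum by the transporter of Tap1 and Tap2, to which tapasin tethers the waiting heavy chain. Interferons are the textbook inducers of these genes, and in healthy brain they are best known from microglia and endothelial cells, with some neurons also using class I molecules.

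Library totals ran from 1524165 to 12256374 counts and mouse totals from 7852743 (WT mouse 3) to 37582644 (GFAP-IL6 mouse 3), and no pair of libraries held identical counts. Il6, the transgene's product, was at 0.26, 0.166 and 0 CPM (counts per 1000000 counts) in WT mice 1 to 3 and at 3.16, 1.58 and 4.22 CPM in GFAP-IL6 mice 1 to 3, so each mouse stood on the side its label gives. Ttr, a choroid plexus marker, ranged from 74.5 to 4035 CPM among the mice and was highest in WT mouse 3. The markers of neurons were high in each mouse, as the tissue label says, with the 8 of them summing to between 8118 and 9551 CPM. In bulk tissue, more cells of a type and more RNA per cell cannot be told apart.

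On mm10, with GENCODE M21 gene models, 9 of the 10 genes lay on chromosome 17 and B2m lay on chromosome 2 from 122147686 to 122153083. Psmb9, Tap1, Psmb8 and Tap2 stood side by side over 34335 bases of chromosome 17, from 34181987 to 34216321. Psmb9 and Tap1 are read in opposite directions and in these models overlap at their 5' ends by 212 bases. Their RefSeq start sites, used for the promoters below, lie 226 bases apart. Tapbp lay at 33915899 to 33929292, H2-K1 at 33996017 to 34000347, H2-D1 at 35262730 to 35267499, H2-Q4 at 35379617 to 35385290, and H2-T23 at 36029773 to 36032855. Counts come from the 3' ends. A gene on the other strand runs over the last exon of B2m (Patl2), H2-T23 (A930015D03Rik) and Psmb8 (Gm20496), and reads of such partners can be told apart only if counting used strand, which the sources used here do not give. Of the 431 windows of 70 bases in the last 500 bases of each gene's longest coding transcript, 95 were also found in transcripts of other genes for H2-T23 (22%), 82 for H2-Q4 (19%) and 2 for H2-D1 (0.464%), and none for the other 7 genes, so the counts of H2-T23 and H2-Q4 are the least certain.

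Promoter sequences from RefSeq, covering 250 bases before to 50 bases after a start site on GRCm38.p6, were found for 9 of the 10 genes. Tap2 had no entry. The promoters of B2m and of the heavy chain genes H2-K1, H2-D1 and H2-T23 are shown because they put genes that rose beside one that did not pass the test. Those of Psmb8 and Tap1 are shown because Psmb8 changed most and because the Tap1 window shares 275 of its 300 bases with that of Psmb9, which lies on the other strand. Capitals mark matches, on either strand, to the gamma-activated sequence TTCNNNGAA, the interferon regulatory factor element GAAANNGAA or its other spacing GAANNGAAA, the cAMP response element TGACGT, the CCAAT box, and the NF-kappaB consensus, and each promoter is printed on the strand of its gene, 5' to 3'.
B2m (chr2:122147437-122147736, strand +): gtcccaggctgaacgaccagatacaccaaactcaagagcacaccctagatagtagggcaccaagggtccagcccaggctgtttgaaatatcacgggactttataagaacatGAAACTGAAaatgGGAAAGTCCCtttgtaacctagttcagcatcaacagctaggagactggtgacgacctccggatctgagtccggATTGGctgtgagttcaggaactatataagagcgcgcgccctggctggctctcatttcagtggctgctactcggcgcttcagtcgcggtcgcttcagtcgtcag
H2-K1 (chr17:34000284-34000583, strand -): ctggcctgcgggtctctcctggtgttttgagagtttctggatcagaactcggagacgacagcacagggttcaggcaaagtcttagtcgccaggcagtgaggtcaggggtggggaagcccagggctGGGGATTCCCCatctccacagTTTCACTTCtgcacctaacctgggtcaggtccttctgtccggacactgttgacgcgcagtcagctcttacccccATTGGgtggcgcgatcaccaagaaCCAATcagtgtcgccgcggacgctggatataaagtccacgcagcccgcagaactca
H2-D1 (chr17:35262844-35263143, strand +): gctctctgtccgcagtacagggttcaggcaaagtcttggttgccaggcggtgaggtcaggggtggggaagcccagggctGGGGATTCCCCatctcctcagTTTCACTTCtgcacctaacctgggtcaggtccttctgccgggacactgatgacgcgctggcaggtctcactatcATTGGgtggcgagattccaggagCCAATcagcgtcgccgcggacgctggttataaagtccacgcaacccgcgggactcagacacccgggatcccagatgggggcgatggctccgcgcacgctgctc
H2-T23 (chr17:36032652-36032951, strand -): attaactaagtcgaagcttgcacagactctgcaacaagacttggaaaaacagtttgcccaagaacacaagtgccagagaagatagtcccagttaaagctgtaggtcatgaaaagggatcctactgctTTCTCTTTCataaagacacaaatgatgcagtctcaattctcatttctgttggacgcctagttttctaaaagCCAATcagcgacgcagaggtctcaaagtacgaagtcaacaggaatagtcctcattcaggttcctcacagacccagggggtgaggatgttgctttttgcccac
Psmb8 (chr17:34197945-34198244, strand +): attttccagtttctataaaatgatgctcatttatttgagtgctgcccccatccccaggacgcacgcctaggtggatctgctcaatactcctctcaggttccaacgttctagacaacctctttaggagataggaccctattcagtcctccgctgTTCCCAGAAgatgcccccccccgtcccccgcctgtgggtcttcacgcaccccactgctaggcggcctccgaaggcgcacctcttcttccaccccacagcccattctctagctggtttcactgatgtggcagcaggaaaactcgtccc
Tap1 (chr17:34187306-34187605, strand +): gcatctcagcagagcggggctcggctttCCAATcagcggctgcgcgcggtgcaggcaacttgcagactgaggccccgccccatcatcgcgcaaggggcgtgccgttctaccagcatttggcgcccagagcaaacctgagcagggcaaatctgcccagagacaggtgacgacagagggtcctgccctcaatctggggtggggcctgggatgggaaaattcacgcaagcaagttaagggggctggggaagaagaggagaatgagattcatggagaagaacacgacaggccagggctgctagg

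The B2m promoter held GAAANNGAA starting 139 bases before the start site, beside an NF-kappaB match at 126 bases before. In the H2-K1 window shown, the first of 2 windows set 14 bases apart, GAANNGAAA began 104 bases before the start site and followed a pair of overlapping NF-kappaB matches. H2-D1 held the same order of matches, with GAANNGAAA 150 bases before its start site. The H2-K1 and H2-D1 windows were identical at 229 of 347 alignment columns (66%), where a column with a gap counts as not identical. With GAANNGAAA at 104 bases in one and 150 in the other, the 2 windows are offset, and their unmatched ends lower this percentage. H2-T23 held GAAANNGAA at 123 bases before its start site and no NF-kappaB match, and its window was identical to that of H2-D1 at 177 of 345 columns (51.3%). Psmb8 alone held TTCNNNGAA, 97 bases before the RefSeq start site. This match lies inside the M21 gene model of Psmb8, which runs from 34197721 to 34201454, so the start sites of the sources differ. The whole H2-D1 window also lies inside its M21 model, which starts at 35262730. So does the GAAANNGAA match of H2-T23, whose model, on the minus strand, ends at 36032855. Distances to a start site given here are to that of RefSeq. Over the 9 genes with a window, TTCNNNGAA was found in 1, GAAANNGAA in 2, GAANNGAAA in 3, TGACGT in 1 (H2-Q4), the NF-kappaB consensus in 4 and CCAAT in 8. Over all 32851 RefSeq promoter windows of this length, these motifs were found in 8.30%, 8.56%, 7.52%, 7.51%, 8.46% and 37.4%, in that order. H2-Q4 held both GAANNGAAA and NF-kappaB matches and had 0 counts in each library. Its window was identical to that of H2-D1 at 239 of 317 columns (75.4%). Here GAANNGAAA lies 153 bases before the H2-Q4 start site, so these 2 windows nearly line up. The percentages therefore do not rank H2-Q4 and H2-K1 by likeness to H2-D1. Psmb8 and Psmb9, which both passed the test, held no GAAANNGAA, GAANNGAAA or NF-kappaB match. The matches are strings of letters, binding was not measured, and a link between matches and fold changes was not tested.

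All 9 tested genes had a positive log2 fold change in GFAP-IL6 against WT cortex, from 0.17 for H2-T23 to 1.11 for Psmb8. The median was 0.72, and that of all 14621 genes tested was -0.0069. In edgeR's quasi-likelihood test on the summed libraries of each mouse, 5 of the 9 passed a Benjamini-Hochberg adjusted p of 0.05, all of them higher in GFAP-IL6: Psmb8, Psmb9, B2m, H2-K1 and H2-D1. Of all genes tested, 1.74% passed this way. With a log2 fold change above 1 asked for as well, which is the rule for a differentially expressed gene here, 1 of the 9 (Psmb8) was called, against 1.20% of all genes. In 8 of the 9, the GFAP-IL6 mice all lay above the WT mice, which held for 8.43% of all genes, and H2-T23 was the exception. The plot of levels by mouse gives these values with their libraries.

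**Figure D1:**
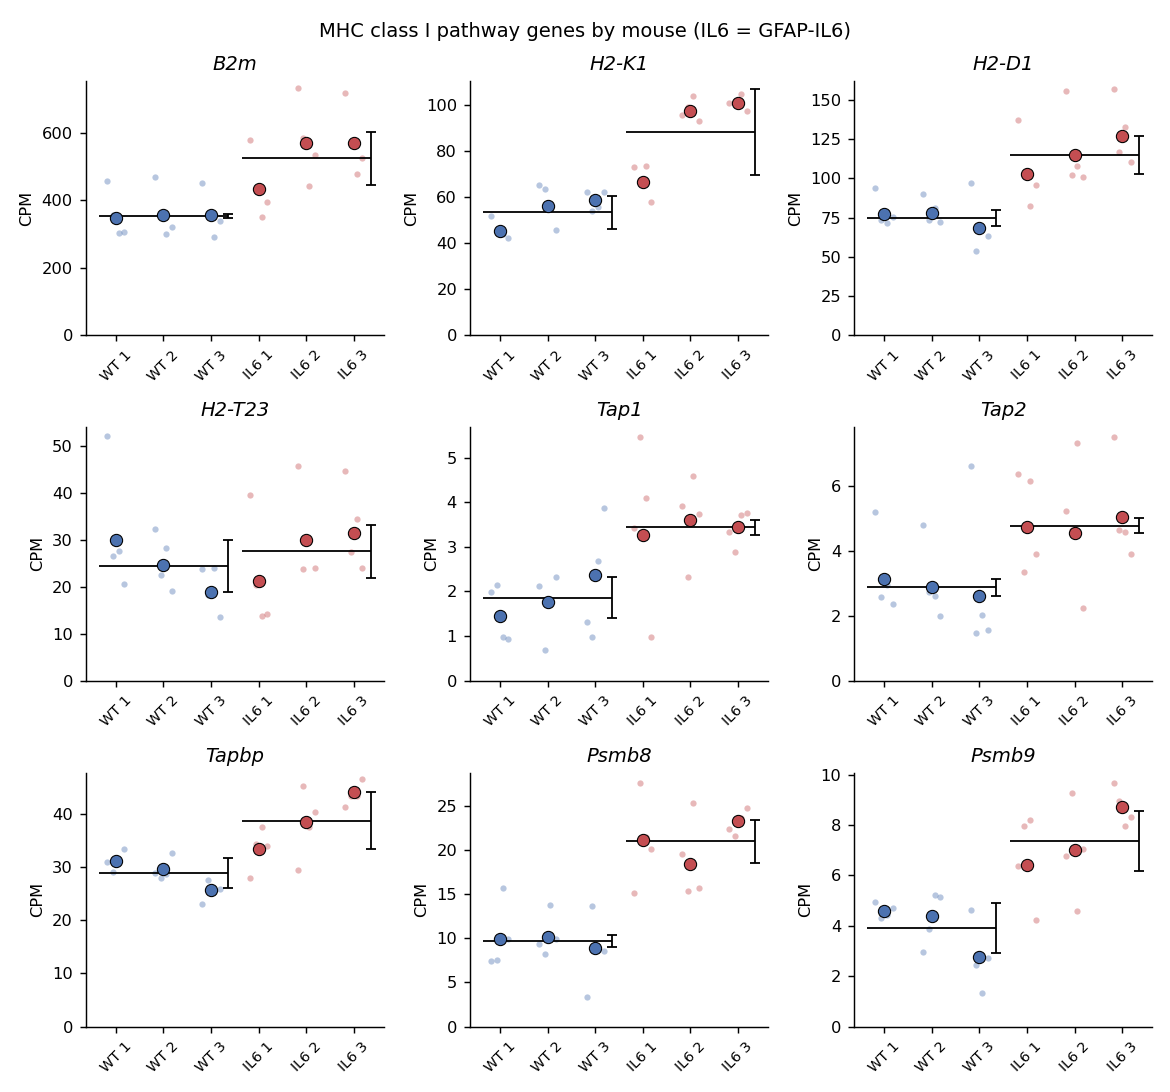
CPM (vertical axes, each from 0) of the 9 genes with counts in the 3 WT (blue) and 3 GFAP-IL6 (red) mice, with large points for the 4 libraries of a mouse summed, small points for single libraries, lines for the mean of 3 mice and bars for their SD. The large red points lie above the large blue ones except for H2-T23, the small points overlap between genotypes for several genes, and GFAP-IL6 mouse 1 is the lowest of its group for B2m, H2-K1 and H2-D1.

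B2m, the light chain common to all classical class I molecules, was at 348, 356 and 358 CPM in WT mice 1 to 3 and at 434, 571 and 571 CPM in GFAP-IL6 mice 1 to 3. The WT mice were close together, at 354 ± 5.42 CPM (SD, n = 3), and the GFAP-IL6 mice were higher and more spread, at 525 ± 78.7 CPM. The log2 fold change was 0.57 (SE 0.103, 95% interval 0.35 to 0.79, edgeR adjusted p = 0.00612), or 1.49-fold. GFAP-IL6 mouse 1 was the lowest of its group and still above each WT mouse.

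H2-K1, which encodes the classical heavy chain K, was at 45.1, 55.9 and 58.8 CPM in the WT mice and at 66.5, 97.3 and 101 CPM in the GFAP-IL6 mice. Mouse 1 was the lowest in both groups, and the groups did not overlap. The log2 fold change was 0.75 (SE 0.141, 95% interval 0.45 to 1.05, edgeR adjusted p = 0.00893). Over 14 alternative settings the adjusted p ranged from 4e-11 to 0.062, and it missed the threshold without GFAP-IL6 mouse 2 (0.0597) and without GFAP-IL6 mouse 3 (0.062), where the log2 fold changes were 0.68 and 0.64.

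H2-D1, the gene of the classical heavy chain D, was at 77.4, 77.8 and 68.5 CPM in the WT mice and at 103, 115 and 127 CPM in the GFAP-IL6 mice. Each GFAP-IL6 mouse was above each WT mouse by more than the range of the WT group. Its log2 fold change was 0.63 (SE 0.0958, 95% interval 0.42 to 0.83, edgeR adjusted p = 0.00156), or 1.54-fold, and it passed under all 14 alternative settings, as B2m and Psmb8 did.

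H2-T23 encodes the non-classical heavy chain Qa-1, which presents few peptides and is read by natural killer receptors. Its levels were 30.1, 24.6 and 18.9 CPM in the WT mice and 21.2, 30 and 31.6 CPM in the GFAP-IL6 mice. The groups overlapped widely, with GFAP-IL6 mouse 1 below WT mice 1 and 2. The log2 fold change was 0.17 (SE 0.163, 95% interval -0.18 to 0.52, edgeR adjusted p = 0.865), an interval that holds no change as well as a part of the range seen for H2-K1. H2-Q4, another non-classical heavy chain gene, had 0 counts in each of the 24 libraries. A count of 0 allows up to between 0.0778 CPM, in the deepest mouse, and 0.393 CPM, in the shallowest, for counting error only.

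The genes of peptide transport were less deeply counted. Tap1, a chain of the peptide transporter, had 28, 32 and 18 counts in the WT mice and 31, 75 and 133 counts in the GFAP-IL6 mice, which are 1.46, 1.77 and 2.36 CPM against 3.27, 3.6 and 3.45 CPM. The groups did not overlap, and the GFAP-IL6 mice were close to each other. The log2 fold change of 0.95 was among the highest of the 9 genes, with an SE of 0.276 and a 95% interval of 0.36 to 1.53, and did not pass (edgeR adjusted p = 0.141).

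Tap2, the partner of Tap1, was at 3.12, 2.88 and 2.62 CPM in the WT mice and at 4.74, 4.55 and 5.03 CPM in the GFAP-IL6 mice. Here too the groups were apart and tight, at 2.87 ± 0.248 and 4.77 ± 0.239 CPM (SD, n = 3), but counts were 20 to 194 per mouse. The log2 fold change was 0.72 (SE 0.219, 95% interval 0.25 to 1.19, edgeR adjusted p = 0.176), which did not pass in the summed libraries or under any of 14 alternatives. Tapbp, for tapasin, was at 31.1, 29.7 and 25.7 CPM in the WT mice and at 33.4, 38.5 and 44.1 CPM in the GFAP-IL6 mice, without overlap, and GFAP-IL6 mouse 1 lay nearest to the WT mice. Its log2 fold change was 0.42 (SE 0.119, 95% interval 0.17 to 0.68, edgeR adjusted p = 0.117). Over the alternatives its adjusted p ranged from 0.00226 to 0.747. Tapbp passed without GFAP-IL6 mouse 1 (0.0375), with no filter on low counts (0.0138) and with the 24 libraries in limma voom (0.00226).

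Psmb8, which encodes the immunoproteasome subunit that replaces Psmb5, changed most among the 9 genes. It was at 9.98, 10.2 and 8.92 CPM in the WT mice and at 21.2, 18.5 and 23.3 CPM in the GFAP-IL6 mice. The lowest GFAP-IL6 mouse was well above the highest WT mouse, and GFAP-IL6 mouse 1 was not the lowest here. Its log2 fold change was 1.11 (SE 0.135, 95% interval 0.82 to 1.39, edgeR adjusted p = 0.00021), or 2.15-fold, and it stayed above 1 under all 14 alternatives (1.01 to 1.19).

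Psmb9, whose product replaces Psmb6, was at 4.58, 4.37 and 2.75 CPM in the WT mice and at 6.43, 7 and 8.71 CPM in the GFAP-IL6 mice. The groups did not overlap, and WT mouse 3, with 21 counts, was the lowest. The log2 fold change was 0.89 (SE 0.214, 95% interval 0.43 to 1.34, edgeR adjusted p = 0.0485). This call lay at the threshold: 6 of 14 alternatives passed, and the adjusted p ranged from 0.00237 to 0.406. It missed without WT mouse 1 (0.0695), WT mouse 2 (0.111), WT mouse 3 (0.0978), GFAP-IL6 mouse 2 (0.118) or GFAP-IL6 mouse 3 (0.406), with 10 counts required in every mouse (0.0535), in mice thinned to the smallest total (0.324) and with the replicate block (0.134).

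Ratios of counts within a mouse, which need no scaling between mice, compared each immunoproteasome gene with the constitutive gene whose product it replaces. The ratio of Psmb8 to Psmb5 was 0.1, 0.103 and 0.0993 in the WT mice and 0.275, 0.175 and 0.262 in the GFAP-IL6 mice. The WT mice were nearly the same, and each GFAP-IL6 mouse was higher, by 1.21 on the log2 scale (2.31-fold, exact permutation p = 0.1, two-sided). With 3 mice against 3 the exact test cannot give a p under 0.1, and with 6 ratios compared the adjusted p was 0.3. Psmb9 to Psmb6 was 0.0116, 0.013 and 0.00879 in the WT mice and 0.0163, 0.0208 and 0.0287 in the GFAP-IL6 mice, again without overlap, a log2 difference of 0.96 (exact permutation p = 0.1, adjusted p = 0.3).

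The third immunoproteasome gene, Psmb10, which is not on chromosome 17 with the others and was not among the 10 genes, did not show this. Its ratio to Psmb7 was 9.58, 7.24 and 7.25 in the WT mice and 9.2, 7.75 and 7.5 in the GFAP-IL6 mice, with overlap and a log2 difference of 0.03 (exact permutation p = 0.8). Psmb10 itself was at 153 ± 11.7 CPM in WT and 144 ± 4.65 CPM in GFAP-IL6 (SD, n = 3), a log2 fold change of -0.08 with a 95% interval of -0.26 to 0.098 (edgeR adjusted p = 0.878). That interval lies below the intervals of Psmb8 and Psmb9.

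The ratio of B2m to the sum of H2-K1 and H2-D1 was 2.84, 2.66 and 2.81 in the WT mice and 2.56, 2.69 and 2.5 in the GFAP-IL6 mice. The groups overlapped, and the log2 difference of -0.10 was larger than the SD of either genotype (0.051 in WT and 0.054 in GFAP-IL6). The exact permutation p was 0.2 (adjusted p = 0.4), in a test that cannot go under 0.1 with 3 mice against 3. Differences for H2-K1 to H2-D1 (0.09 on the log2 scale) and Tap1 to Tap2 (0.18) were smaller than the SD of the WT mice (0.28 and 0.48), each with an exact permutation p of 0.7. The plot of ratios shows the 6 pairs on axes of equal span.

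**Figure D2:**
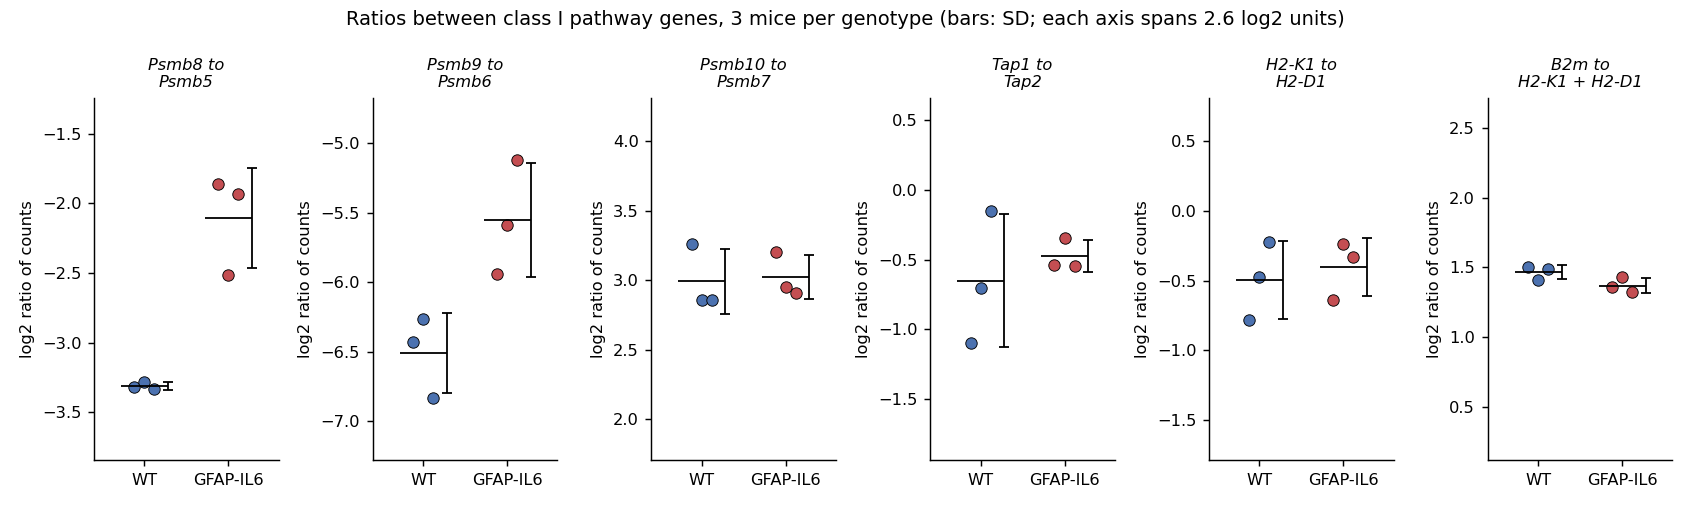
Log2 ratio of counts (vertical axes of equal span) of 6 gene pairs in 3 WT (blue) and 3 GFAP-IL6 (red) mice, with points for mice, lines for means and bars for the SD. The ratios of Psmb8 to Psmb5 and Psmb9 to Psmb6 separate the genotypes and the other 4 do not.

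The 10 genes together took 554, 557 and 531 CPM of the unscaled totals in the WT mice and 691, 894 and 939 CPM in the GFAP-IL6 mice. No WT mouse reached the lowest GFAP-IL6 mouse, and the means were 547 ± 14.6 and 842 ± 132 CPM (SD, n = 3), which is 1.54-fold (exact permutation p = 0.1, the smallest that 3 mice against 3 allow). B2m made up 62.4% to 65.5% of these counts, so the sum mostly follows that gene.

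The genotype comparison was repeated in each of the 4 sets of 6 libraries, where 9 of the 10 genes were tested each time and all 9 had a positive log2 fold change. In every set 4 of the 9 passed the adjusted p, and B2m, H2-K1, H2-D1 and Psmb8 were those 4 each time. Of all genes tested, 1.01% (2 ng set A), 1.07% (1 ng set A), 1.05% (2 ng set B) and 1.06% (1 ng set B) passed with a higher level in GFAP-IL6. With the log2 fold change above 1 as well, Psmb8 was called in 3 sets and not in 2 ng set B, against 0.681% (2 ng set A), 0.758% (1 ng set A), 0.736% (2 ng set B) and 0.748% (1 ng set B) of all genes. In set A its log2 fold change was 1.43 with 2 ng and 1.19 with 1 ng, and in set B it was 0.82 and 1.10.

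The other genes that passed varied less across sets, B2m from 0.52 to 0.61, H2-D1 from 0.55 to 0.70 and H2-K1 from 0.63 to 0.93 on the log2 scale. Tap1 ranged from 0.54 to 1.32, Tap2 from 0.29 to 1.15 and Psmb9 from 0.64 to 1.25, with no pass in any set, and single libraries held as few as 2, 3 and 2 counts of these genes. Tapbp ranged from 0.27 to 0.57 and H2-T23 from 0.056 to 0.25. Whether the genotype difference changed with the cDNA amount or the set letter was tested over all 24 libraries with the mouse in the model. Of the 9 genes, 0 passed for either interaction in edgeR, as did 0% of all 13249 genes in both (269 and 708 genes at an unadjusted p under 0.05). The lowest unadjusted p of the 9 genes was 0.39 for the amount and 0.0874 (H2-K1) for the set letter, and the 95% intervals of the interactions were widest for Tap1, from -0.83 to 1.25 for the amount and from -1.15 to 0.91 for the set letter.

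Levels of some of these genes did differ between the libraries of the same mouse. H2-T23 was higher with 2 ng than with 1 ng in 6 of 6 mice, at 33.1 ± 6.97 against 21.2 ± 3.92 CPM (SD, n = 6), a log2 difference of 0.62 (SE 0.0796, edgeR adjusted p = 4.28e-09). Tap2 was higher with 2 ng in 6 of 6 mice (5.11 ± 1.21 against 2.95 ± 1.01 CPM, log2 difference 0.73, edgeR adjusted p = 0.00131), and so was H2-D1 (106 ± 27.3 against 86.6 ± 21.2 CPM, log2 difference 0.28, edgeR adjusted p = 1.86e-05). These 3 of 9 genes passed the amount comparison, against 26.1% of all genes, so their share was near the background.

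Between the sets, B2m was lower in set B than in set A in 6 of 6 mice, at 382 ± 91 against 507 ± 119 CPM (SD, n = 6), a log2 difference of -0.39 (edgeR adjusted p = 1.15e-10). H2-T23 (-0.41, adjusted p = 4.93e-05) and H2-D1 (-0.20, adjusted p = 0.00241) were also lower in set B in 6 of 6 mice. That made 3 of 9 genes, against 26.2% of all genes. For H2-T23, both technical differences were larger than its difference between genotypes of 0.17, and in WT libraries its CPM ran from 13.5 to 52.2. The lines in the plot of library sets are highest in 2 ng set A in each of the 6 mice for B2m and H2-D1, and for H2-T23 in all mice except WT mouse 3, at 23.8 CPM in 2 ng set A and 24.1 CPM in 2 ng set B.

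**Figure D3:**
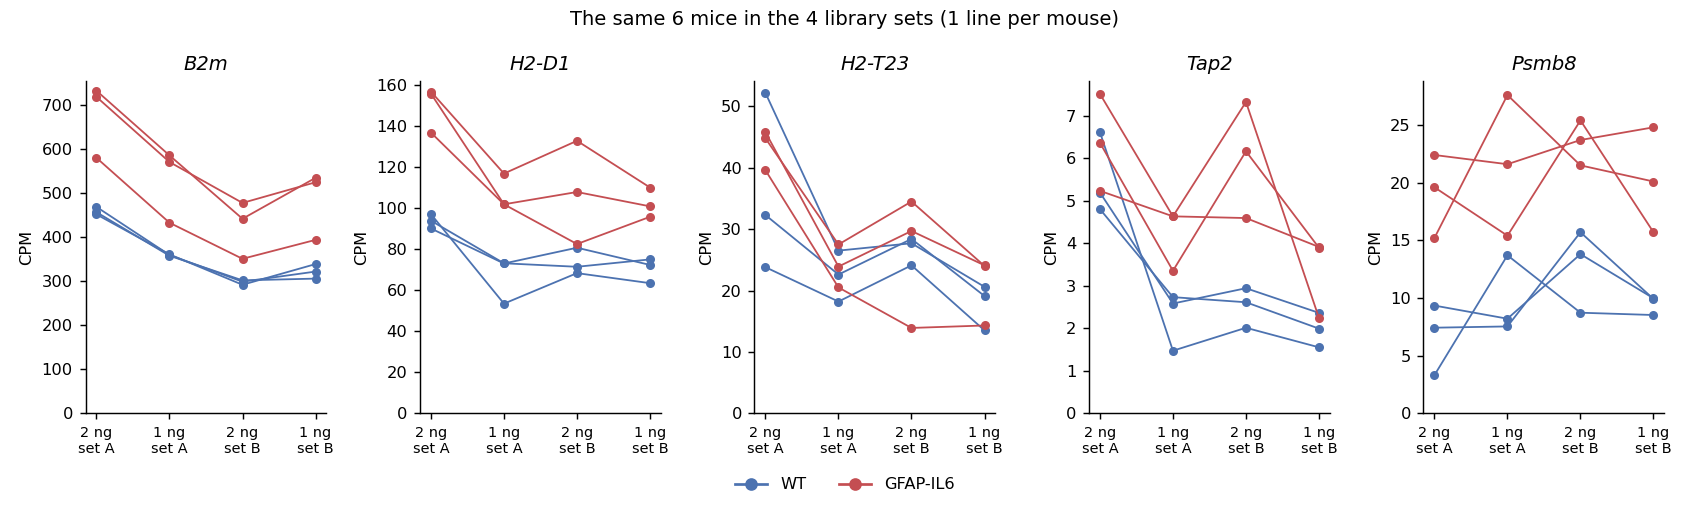
CPM (vertical axes, each from 0) of 5 genes in the 4 library sets (horizontal axis), with 1 line for each WT (blue) and GFAP-IL6 (red) mouse. Red lines stay above blue ones in each set for B2m, H2-D1 and Psmb8, while for H2-T23 they cross and the step between sets exceeds that between genotypes.

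Other genes of the pathway were read from lists of related genes. Of 29 further class I and class I-like chain genes, 21 were in the table and 5 were tested, and 0 passed in edgeR. The non-classical genes H2-T22 (log2 fold change -0.03) and H2-M3 (0.09) and the class I-like genes Mr1 (0.37) and Cd1d1 (-0.14) were among those 5, and the median of the list was -0.035. Of 8 peptide trimming and loading genes, 8 were tested and 0 passed, with a median of 0.022. The chaperone genes Hspa5 (0.30, edgeR adjusted p = 0.129), Calr (0.17), Canx (-0.04) and Pdia3 (-0.03) are examples. The largest fold change among the loading genes, for the peptide-trimming enzyme Erap1 (0.61, edgeR adjusted p = 0.435), is named after its value was seen.

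The proteasome genes outside the 10 showed small values. The activator genes Psme1 and Psme2 had log2 fold changes of 0.27 (95% interval 0.048 to 0.49) and 0.16 (-0.047 to 0.36), and the assembly factor gene Pomp had 0.05. With Psmb10, 0 of these 4 passed in edgeR. The constitutive catalytic genes Psmb5 (-0.08), Psmb6 (-0.01) and Psmb7 (-0.09) did not pass either.

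Of 19 transcriptional regulators of class I genes, 18 were tested and 2 passed, both higher in GFAP-IL6. Irf8, a myeloid interferon regulatory factor, was at 4.73, 5.26 and 3.54 CPM in the WT mice and at 7.27, 10.9 and 13.9 CPM in the GFAP-IL6 mice, a log2 fold change of 1.24 (SE 0.224, edgeR adjusted p = 0.00612). Irf9, a factor of the interferon response that is named after its value was seen, had a log2 fold change of 0.78 (edgeR adjusted p = 0.0251). Stat3, which IL-6 receptors activate, had 0.49 (edgeR adjusted p = 0.0686) and did not pass, nor did Rfxap (-0.02), Nfyb (-0.23) and Creb1 (-0.07), whose products bind class I promoters. These examples were taken for their mean CPM, and the median log2 fold change of the list was higher, at 0.30. Nlrc5, the class I transactivator, had at most 0.26 CPM in a mouse and was not tested.

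Of 14 interferon and IL-6 signalling genes, 12 were tested and 3 passed. Ifngr1, a chain of the interferon-gamma receptor, rose by a log2 fold change of 0.73 (edgeR adjusted p = 0.00468), from 26.9 ± 3.81 to 44.6 ± 6.37 CPM (SD, n = 3), and Ifngr2, the other chain, had 0.04. Socs3, a feedback inhibitor of IL-6 signalling, was at 1.04, 1.16 and 1.31 CPM in the WT mice and at 2, 2.78 and 5.29 CPM in the GFAP-IL6 mice (log2 fold change 1.62, edgeR adjusted p = 0.0329), and Il6 was the third. The receptor subunit gene Il6st (0.32) and the kinase gene Jak1 (-0.09) did not pass. The interferon genes Ifng and Ifnb1 had 0 counts in all libraries, which allows up to between 0.0778 and 0.393 CPM in a mouse.

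Of 12 receptors that bind class I molecules, 11 were in the table and 2 were tested. Pirb, an inhibitory receptor of myeloid cells and neurons, was at 0.468, 0.221 and 0.262 CPM in the WT mice and at 4.22, 3.5 and 4.74 CPM in the GFAP-IL6 mice, without overlap, a log2 fold change of 3.63 (SE 0.374, edgeR adjusted p = 3.79e-05). Fcgrt, a class I-like Fc receptor that pairs with B2m, had 0.06 and did not pass.

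**Figure D4:**
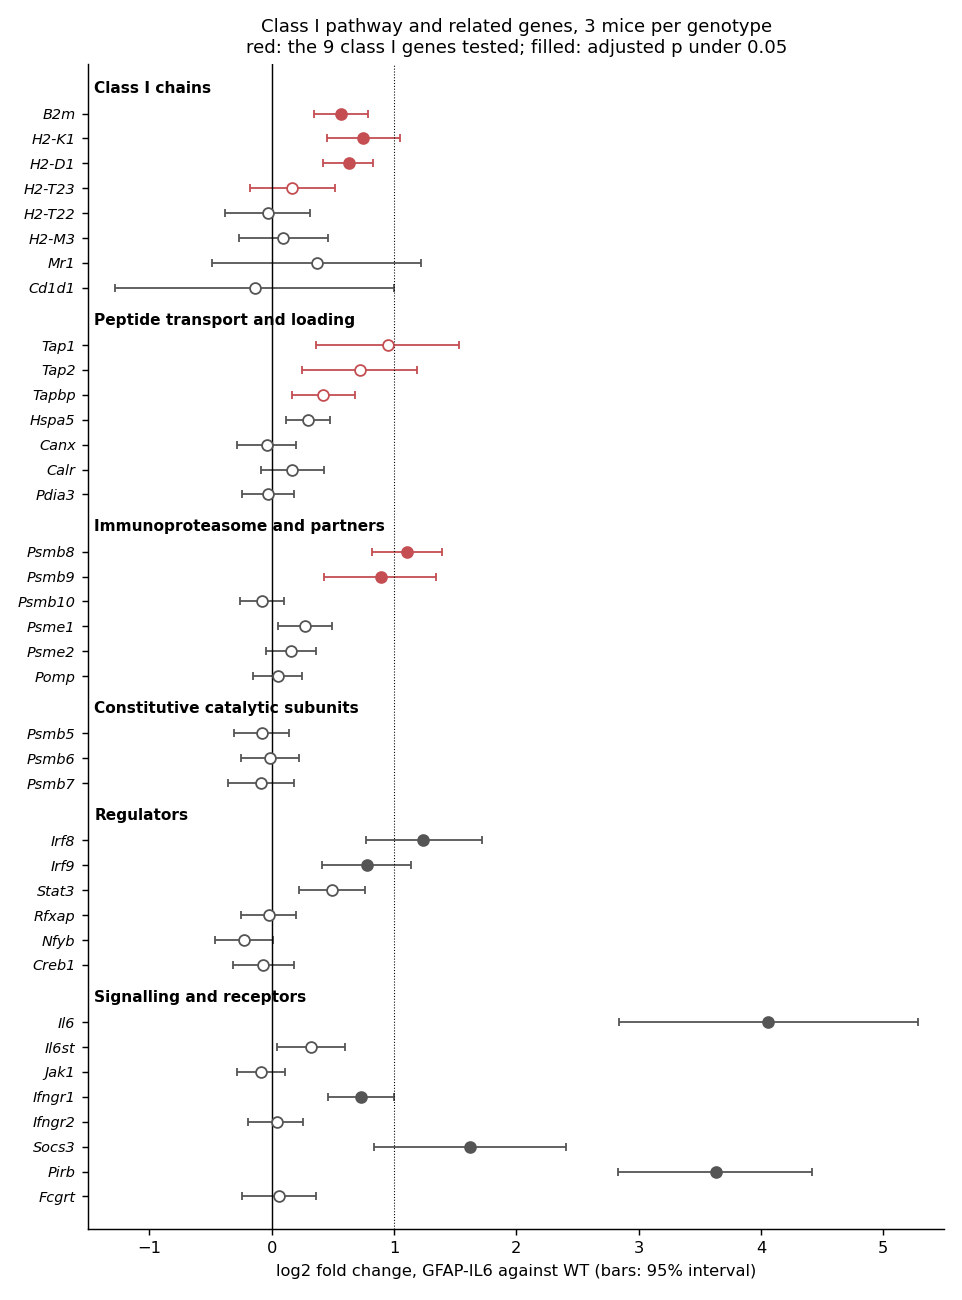
Log2 fold change of GFAP-IL6 against WT (horizontal axis) with its 95% interval from edgeR for the 9 class I genes tested (red) and examples from the lists of related genes (grey), filled where the adjusted p was under 0.05. The red points lie at 0.17 to 1.11, and the constitutive catalytic subunits and Psmb10 lie near 0.

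Some markers of microglia and endothelial cells, the types best known for class I genes in healthy brain, were also higher in GFAP-IL6. Of 8 microglia markers, 8 were tested and 6 passed, all higher in GFAP-IL6, and their summed level was 389 to 441 CPM in the WT mice and 620 to 789 CPM in the GFAP-IL6 mice. None of the 8 was at 0. Among them, Aif1 had a log2 fold change of 1.22 and P2ry12 -0.02. Of 8 endothelial markers, 2 passed (Flt1, 0.70, and Ly6c1, 0.82), none was at 0, and the sum was 123, 124 and 128 CPM in the WT mice and 144, 234 and 227 CPM in the GFAP-IL6 mice. Ly6c1 made up most of this sum, at 62.8, 70.1 and 75.1 CPM in the WT mice and 79.5, 146 and 139 CPM in the GFAP-IL6 mice. In 6 of the 8 the GFAP-IL6 mice all lay above the WT mice, against 8.43% of all genes tested, and Pecam1 (0.55) and Slco1a4 (0.33) overlapped. GFAP-IL6 mouse 1 was the lowest of its group for both lists, as it was for each of the 9 class I genes except Tap2 and Psmb8. Their part in the class I result was not tested.

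In the other marker lists no tested marker passed. The 8 astrocyte markers summed to 3002 to 3113 CPM in the WT mice and 3307 to 3511 CPM in the GFAP-IL6 mice. This sum too was higher in each GFAP-IL6 mouse than in each WT mouse, while 0 of 8 passed in edgeR. Of the neuron and oligodendrocyte markers, 0 of 8 and 0 of 8 passed. For border macrophage and monocyte, blood and choroid plexus markers it was 0 of 7 tested, 0 of 5 and 0 of 5. The border macrophage and monocyte list summed to 11.1 to 14.3 CPM in WT and 10.6 to 15.5 CPM in GFAP-IL6 mice. The T cell list summed to 1.84 to 4.98 CPM in WT and 4.1 to 5.13 CPM in GFAP-IL6 mice, with 0 of 2 tested markers passing. In this list 2 of 8 markers were higher in each GFAP-IL6 mouse than in each WT mouse, against 8.43% of all genes tested. These were Lck, at 1.25 to 1.33 CPM in WT and 1.79 to 2.54 CPM in GFAP-IL6 mice, and Cd3d, with at most 8 counts in a mouse. Cd4 overlapped and reached 3.27 CPM in WT mouse 2. Cd3e was at 0 in 4 of the 6 mice and Cd8a at 0 in each WT mouse. The natural killer list summed to 0.364, 0.664 and 0 CPM in the WT mice and to 1.48, 0.719 and 1.09 CPM in the GFAP-IL6 mice. Each GFAP-IL6 mouse was above each WT mouse in this sum, and no marker had enough counts to be tested. Of the 6 markers, 1 (Nkg7) was without overlap, at 0.26, 0.111 and 0 CPM in the WT mice and 0.632, 0.431 and 0.285 CPM in the GFAP-IL6 mice. Gzmb had 0, 1 and 0 counts in the WT mice and 5, 1 and 17 in the GFAP-IL6 mice. Ncr1 was at 0 in 5 of the 6 mice. The part of the T cell and natural killer lists in the class I result was not tested. Of B cell and dendritic cell markers 0 of 2 and 0 of 2 tested passed. The B cell list summed to 54.1 to 61.6 CPM in WT and 58.4 to 72.5 CPM in GFAP-IL6 mice, nearly all of it Ighm. The dendritic cell list summed to 8.8 to 9.98 CPM in WT and 7.69 to 11.2 CPM in GFAP-IL6 mice, with Xcr1 at 0 in all 6. Itgax was the 1 marker of these 6 that was higher in each GFAP-IL6 mouse. It had 0 counts in each WT mouse and 2, 5 and 21 counts in GFAP-IL6 mice 1 to 3, too few to be tested. The plot of summed lists sets these beside the class I genes.

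**Figure D5:**
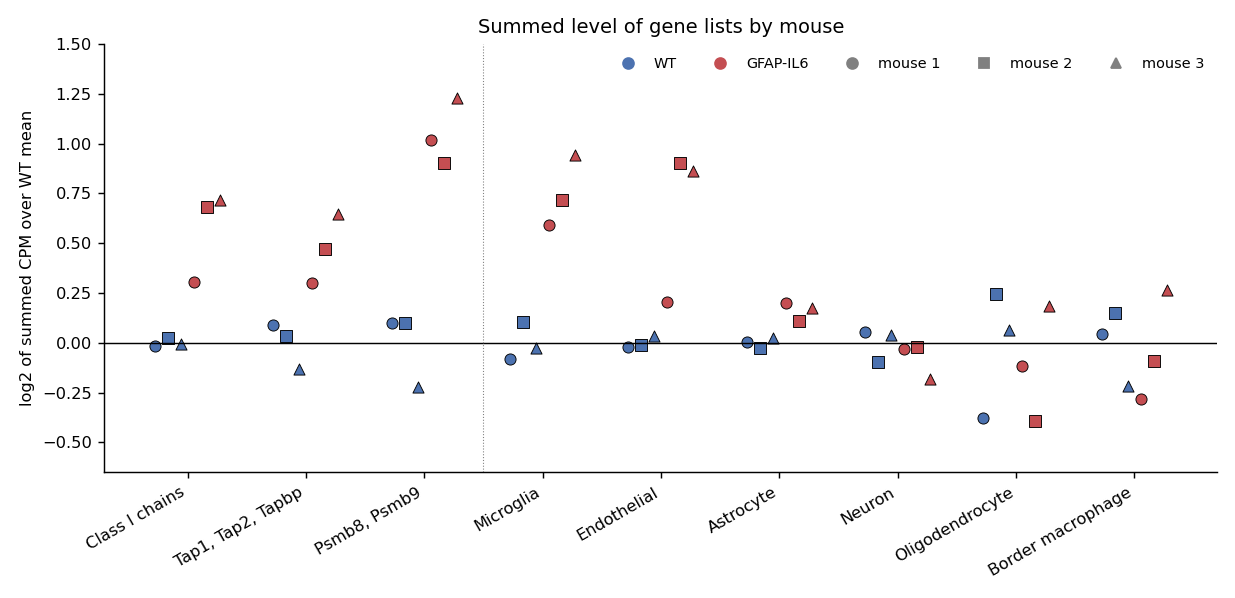
Log2 of the summed CPM of each gene list over its mean in WT (vertical axis) for the class I genes by role (left of the dotted line) and for markers of cell types (right), with 1 symbol per mouse, WT in blue and GFAP-IL6 in red. Class I, microglia, endothelial and astrocyte sums are higher in each GFAP-IL6 mouse than in each WT mouse. GFAP-IL6 mouse 1 is the lowest of its group for the chains, the transport genes and the microglia and endothelial lists. The neuron, oligodendrocyte and border macrophage sums overlap between genotypes.

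Of 10729 further genes with a mean of at least 5 CPM, the 5 whose log2 CPM over the 6 mice was most like the mean standardised level of the 9 genes were Rac2 (Pearson r = 0.9989), Scrg1 (0.9949), Cd53 (0.9947), Ifitm1 (0.9939) and Abi3 (0.9936). These correlations are over 6 mice in 2 genotypes that share the summed libraries, and are given as a description. Rac2, a small GTPase gene, rose from 6.6 to 16.4 CPM (log2 fold change 1.31, edgeR adjusted p = 0.000809), and Cd53, a leukocyte tetraspanin, from 16.1 to 31.4 CPM (0.96, adjusted p = 0.000841). Ifitm1, an interferon-induced membrane protein gene, rose from 7.46 to 27.4 CPM (1.85, adjusted p = 5.94e-05). Abi3 (1.13) and Scrg1 (0.51) also passed.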

How the data were processed

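Frontal cortex RNA of 3 WT and 3 GFAP-IL6 mice was sequenced in 24 3'Pool-seq libraries. Per the methods and the submitters' processing notes, polyA was trimmed, STAR 2.4 served for alignment (mm10) and featureCounts for counting reads with a unique alignment. The authors deposited raw counts for each gene, beside its length, which is a value of another kind and was not used for scaling. Counts of the 4 libraries of a mouse were summed (7852743 to 37582644 per mouse) and compared with edgeR 4.0.16 in R 4.3.3 (TMM, filterByExpr, quasi-likelihood test, Benjamini-Hochberg adjustment over all genes), in each set likewise, and over all libraries with the mouse as a fixed term for the interactions. This test was used in place of DESeq2, the tool of the study's methods, which was an alternative (1.42.0). The fit was tested on simulated data. CPM were scaled by TMM totals. Floors (3 counts) cover counting error only, since reads without molecular identifiers are not independent molecules.

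The genes, the lists and the tests were chosen with earlier results of these data known. All 10 genes are named, and of each related list the called genes and up to 4 others of the highest mean CPM. The 5 genes most like the class I genes were ranked at a pseudocount of 0.5 CPM. Alternatives were DESeq2, other scalings and filters, a replicate block, thinning, limma voom 3.58.1 and leaving out each mouse. The NF-kappaB and GAANNGAAA motifs, the contrasts between libraries of a mouse and 1 denominator of the share were added after seeing the data. Gene models are those of GENCODE M21, and counting used M6.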

Additional observations from a re-analysis of the deposited data

How the results depend on the processing

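The count of 1 called gene (Psmb8) in the summed libraries held under the 14 refits. It was 5 at an adjusted p under 0.05 with no threshold on the fold change and 0 at 0.1 with a log2 fold change above 1.5. The count of genes past the adjusted p alone was 3 to 6 with a mouse left out, and 3 without GFAP-IL6 mouse 2 or GFAP-IL6 mouse 3. In single sets, leaving out a mouse gave 0 to 1 called genes. Psmb8 was lost without GFAP-IL6 mouse 3 in 3 sets, and in 1 ng set A also without WT mouse 1, WT mouse 2 or GFAP-IL6 mouse 1, and H2-K1 was called in 2 ng set B without GFAP-IL6 mouse 1. Past the adjusted p alone, the count was 2 to 4 in 2 ng set A, 1 to 4 in 2 ng set B and 0 to 4 at 1 ng in either set. The lowest counts came without GFAP-IL6 mouse 3 in each set, and in 2 ng set B also without WT mouse 2 or GFAP-IL6 mouse 2. Without a filter, 2 genes (Psmb8 and Psmb9) were called in 1 ng set A. Under DESeq2, 2 genes passed with 2 ng in set B. The cause was not tested.

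Deviations from the group mean had correlations of -0.047, -0.035 and -0.042 between mice with the same number. Between mice with other numbers they ran from -0.059 to 0.11. Taken within groups of 3, such deviations cannot show whether the numbers pair the mice, and the main test left pairing out. The replicate block left 4 genes past the adjusted p in the summed libraries and 2 with 2 ng in set B, and otherwise moved no count by over 1.5 times.

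The log2 ratio of Psmb10 to Psmb7 ranged from -0.061 to 0.16 with a mouse left out, that of Tap1 to Tap2 from -0.048 to 0.43 and that of H2-K1 to H2-D1 from -0.054 to 0.23. Their signs reversed without WT mouse 2 (-0.038), WT mouse 3 (-0.037) or GFAP-IL6 mouse 1 (-0.061) for Psmb10, and without WT mouse 1 for Tap1 (-0.048) and H2-K1 (-0.054). Differences in the other 3 ratios and in the share of counts (245 to 369 CPM without a mouse, 331 over protein-coding nuclear genes, 278 over TMM-scaled totals) kept their sign. Depth limits Tap1, Tap2 and Psmb9 most, at 18 to 336 counts per mouse.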
